A study of Mus musculus with 48 samples.

Results

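The step examined was the change from 96 h to 144 h of differentiation in C2C12 cells, an established mouse myoblast line. On low serum these cells stop dividing and fuse into multinucleated myotubes. Its members were the 3 arrays labelled with 144 h and the 3 labelled with 96 h, 6 of the 48 arrays of the series. Both groups were cells of the same line, moved from medium with 20% fetal bovine serum to medium with 2% horse serum. Neither group received cycloheximide or any other agent. Other arrays of the series, at 1 h and 3 h, came from cells given 50 µM cycloheximide. Plates were harvested in triplicate from successive passages of that line, so the p values measure the spread between passages of 1 culture. RNA was measured on Affymetrix MOE430v2 arrays, whose values are given on a log2 scale, and 18193 genes were tested. A value belongs to 1 probe set, so values compare arrays and not genes.

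Myotubes mature after fusion. Embryonic and neonatal myosin heavy chains are joined by adult fast isoforms, and the enzymes that buffer and regenerate ATP in muscle and the proteins of the calcium release unit accumulate. Myoblasts that did not fuse can remain in such cultures, either cycling or as quiescent reserve cells. In a whole culture, fewer cells of a type and less RNA per cell cannot be told apart.

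The labels were checked against defining muscle markers, which were bright on all 6 arrays. Myog, a myogenic transcription factor, had values of 12.85, 12.41 and 12.05 at 96 h and 12.60, 12.72 and 12.07 at 144 h. Acta1, skeletal alpha-actin, had values from 13.66 to 14.05, and Tnnt3, fast troponin T, from 12.02 to 12.67. Adipoq, an adipocyte hormone, lay between 2.89 and 3.21. Ptprc, the pan-leukocyte antigen CD45, lay between 3.16 and 3.41. Both were under the array medians of 4.03 to 4.16. Each is 1 marker of a gene list, and the list means were higher. The mean of 11 measured adipocyte markers ran from 4.3171 to 4.5965, above these medians. That of 18 leukocyte markers ran from 3.9779 to 4.2271. The array means were 5.02 to 5.04. The smooth muscle actin gene Acta2 was high throughout, from 13.55 to 13.69, and had a 0 h mean of 13.46.

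Replicate 1 at 144 h stood apart. Its root mean square deviation from its group mean was 0.278, the highest of the 48 arrays, and the next highest was 0.242. On it, 241 genes lay more than 1 log2 unit above the group mean, against at most 22 on the other 5 arrays and at most 97 on any other array of the series. Its 3' minus 5' difference for the Gapdh control probe sets was 0.04, the highest of the 6 arrays, where the other 5 ran from -0.08 to -0.02 and all 48 from -0.12 to 0.05. For the Actb control probe sets the same difference was 0.39 on this array, not the highest of the 6 arrays, which ran from 0.25 to 0.42. The part of RNA quality in what follows was not tested. The count of called genes is therefore given with and without it, as are described genes that lost their call without it.

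With the spread shared by all 48 arrays, limma called 57 of 18193 genes at an adjusted p under 0.05, which is 0.313%. Of these, 38 were higher at 144 h (0.209%) and 19 were lower (0.104%). The rises ran from 0.43 to 1.69 with a median of 0.86, and the falls from -1.41 to -0.51 with a median of -0.81. A change of at least 2-fold was reached by 10 of the risen and 5 of the fallen genes. The arrays of the groups did not overlap for 29 of the risen and all 19 fallen genes, where 7.19% of all genes tested did not overlap, 2.66% with the 144 h arrays higher and 4.53% lower. Without replicate 1 at 144 h, 42 genes were called (0.231%), 34 higher (0.187%) and 8 lower (0.044%), and 33 of the 57 were among them. Other arrays also moved the count. Leaving out replicate 1 at 96 h gave 156 called genes, 71 higher and 85 lower, and 49 of the 57 were among them. Without replicates 2 and 3 at 96 h, each in turn, 40 and 51 genes were called, and 27 and 28 of the 57. Without replicates 2 and 3 at 144 h, 57 and 65 were called, and 32 and 44 of the 57. In all, 17 of the 57 genes were called in each of these 6 fits, and for the genes described below the number of the 6 fits that called them is given.

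These calls rest on the spread of the whole series, in which the cycloheximide arrays are included. A fit of the 42 arrays without cycloheximide called 52 genes, 34 higher and 18 lower, and 51 of the 57 were among them. In a limma fit of the 6 arrays alone, 0 genes were called, the lowest adjusted p was 0.253, and 223 genes were higher and 236 lower at an unadjusted p under 0.05. All 57 genes were among the latter sets. In a fit of the 9 arrays of 48 h, 96 h and 144 h, limma also called 0 genes, with 268 higher and 336 lower at an unadjusted p under 0.05. For 48 of the 57 genes the spread within 96 h and 144 h was wider than that over all 48 arrays, with medians of 0.325 and 0.205. Over all genes, the root mean square SD within a group was 0.257 at 96 h and 0.272 at 144 h, against 0.175 to 0.245 in the 13 groups other than 48 h, 96 h and 144 h. The means of 28 of the 38 risen genes at 0 h lay below 4.5. Every adjusted p below comes from the fit of 48 arrays unless another is named, and "rose", "fell" and "called" refer to it.

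**Figure D1:**
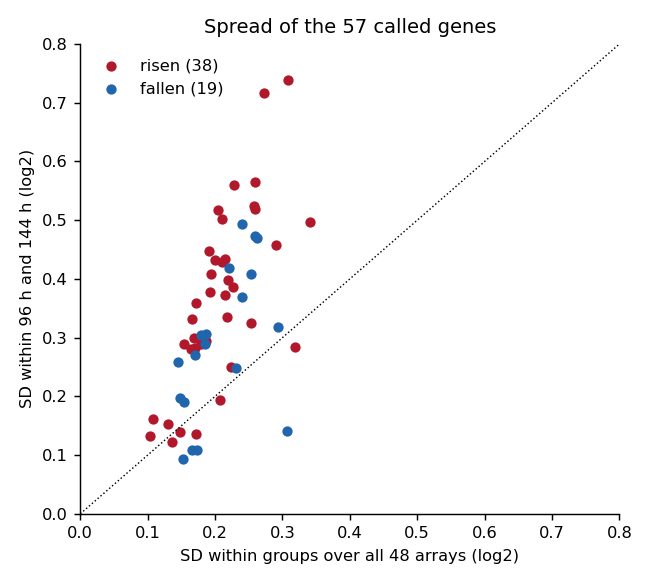
SD within groups of each of the 57 called genes (log2), over all 48 arrays on the x axis and within the 6 arrays of 96 h and 144 h on the y axis; red points are risen and blue points fallen genes, and the dotted line marks equality. 48 of the 57 points lie above the line.

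Sequence upstream of 4 called muscle genes is shown to set the largest rise of the sarcomere list beside members of the synapse and energy metabolism lists. Each line holds the 250 bases before the gene start, 5' to 3' on the gene's strand, from RefSeq on build GRCm38.p6. Myh2 is read at chr11:67170777-67171026 (+), Chrne at chr11:70619195-70619444 (-), Cox7a1 at chr7:30183921-30184170 (+) and Ckmt2 at chr13:91876886-91877135 (-). Capitals mark matches to the E-box CANNTG, the core motif of the MyoD family, and to the N-box CCGGAA, a motif described at synaptic genes. Both strands were searched.
Myh2: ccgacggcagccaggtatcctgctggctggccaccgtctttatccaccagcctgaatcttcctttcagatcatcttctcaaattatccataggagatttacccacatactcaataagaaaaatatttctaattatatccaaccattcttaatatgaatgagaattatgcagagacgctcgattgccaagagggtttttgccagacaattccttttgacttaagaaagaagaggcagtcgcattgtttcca
Chrne: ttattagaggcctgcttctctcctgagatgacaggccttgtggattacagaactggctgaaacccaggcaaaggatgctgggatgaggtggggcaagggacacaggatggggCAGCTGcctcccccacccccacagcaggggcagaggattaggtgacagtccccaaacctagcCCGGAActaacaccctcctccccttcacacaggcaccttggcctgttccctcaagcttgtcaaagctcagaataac
Cox7a1: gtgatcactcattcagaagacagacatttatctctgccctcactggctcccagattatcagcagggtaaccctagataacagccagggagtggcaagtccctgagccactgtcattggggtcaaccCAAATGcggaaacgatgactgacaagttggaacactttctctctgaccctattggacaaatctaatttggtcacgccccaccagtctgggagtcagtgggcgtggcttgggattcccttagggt
Ckmt2: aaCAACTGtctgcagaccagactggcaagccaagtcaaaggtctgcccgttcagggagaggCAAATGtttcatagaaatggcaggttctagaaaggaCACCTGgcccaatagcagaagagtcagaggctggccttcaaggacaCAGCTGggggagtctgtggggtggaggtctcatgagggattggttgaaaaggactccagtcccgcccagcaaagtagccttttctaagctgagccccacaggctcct

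The Ckmt2 window held 4 E-boxes, the Cox7a1 window 1, the Chrne window 1 E-box and 1 N-box, and the Myh2 window neither motif. A window was found for 47 of the 57 called genes and for 27025 genes in all. A gene was counted as holding a motif if any of its windows did. An E-box was held by 23 of the 31 risen genes with a window (74.2%), 10 of the 16 fallen genes (62.5%) and 69.3% of all genes with a window. An N-box stood in 2 of 31 (6.5%), 2 of 16 (12.5%) and 13.6%. The motif shares of the called genes are descriptions of these windows and were not tested.

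Among 50 measured sarcomere genes, 4 rose and 0 fell, beside 0.209% of all genes risen. The list's median difference was 0.16 and 41 members lay above 0, where the median of all genes was -0.02. At an unadjusted p under 0.05, 8 members were higher, where 3.5% of all genes were, and 0 were lower. Without replicate 1 at 144 h the median was 0.08 and 2 members, Myh2 and Myl2, were called. The list median was 0.05 without replicate 3 at 96 h, with 2 members called, where 31 of 18193 genes rose. Without replicate 1 at 96 h it was 0.31, with 7 called, where 71 of 18193 genes rose.

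Myh2 encodes the adult fast type IIa myosin heavy chain. Its values were 4.91, 3.79 and 4.36 at 96 h and 6.10, 6.48 and 5.55 at 144 h. Every array at 144 h was above every array at 96 h. The difference was 1.69 ± 0.16 (SE, n = 3 per group), a 3.23-fold rise, with a limma adjusted p of 3.4e-08. It was 1.66 without replicate 1 at 144 h (adjusted p = 5.7e-07), it was called in 6 of the 6 fits that leave out 1 array, and its mean at 0 h had been 3.07.

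Myl2, the slow and ventricular regulatory myosin light chain, had values of 8.08, 8.56 and 7.90 at 96 h and of 9.09, 10.08 and 9.66 at 144 h. These groups did not overlap. The difference was 1.43 ± 0.17 (limma adjusted p = 1.6e-06), and it was 1.69 without replicate 1 at 144 h, with a call in 6 of 6 fits. Its mean had climbed from 3.52 at 0 h to 6.73 at 48 h.

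The myosin binding proteins C bridge thick and thin filaments. Mybpc1, the slow form, had values of 7.07, 6.27 and 5.78 at 96 h and 8.17, 7.75 and 6.60 at 144 h. Replicate 3 at 144 h lay below replicate 1 at 96 h, so the groups overlapped. The difference was 1.13 ± 0.24 (limma adjusted p = 0.017), and it lost its call without replicate 1 at 144 h (0.80, adjusted p = 0.281), without replicate 2 of the same time and without replicates 2 or 3 at 96 h. Mybpc2, the fast form, stood at 6.47, 5.71 and 5.87 and then at 6.77, 6.61 and 6.83, with no overlap. Its difference was 0.72 ± 0.15 (limma adjusted p = 0.013), and without replicate 1 at 144 h it was 0.70 with an adjusted p of 0.069. It too was called in 2 of the 6 fits.

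The other myosin heavy chains were not called. Myh1, the fast IIx chain, had values of 11.76, 11.79 and 11.81 at 96 h and 12.15, 12.14 and 12.32 at 144 h. Its groups did not overlap, yet the difference of 0.42 ± 0.70 had a limma adjusted p of 0.928. The spread behind that error was 0.92 over the 48 arrays and 0.07 within these 6, and in the fit of the 6 arrays alone the unadjusted p was 0.0067. Myh3, the embryonic chain, differed by -0.15, Myh8, the neonatal chain, by -0.07, Myh7, the slow chain, by -0.02 and Myh4, the fast IIb chain, by -0.34, all with overlapping arrays. Their limma adjusted p values were 0.985, 0.985, 0.998 and 0.745. Myot, a Z-disc protein, was 1.08 higher and fell just short of a call (limma adjusted p = 0.061). The actins Acta1 and Actc1 differed by 0.14 and 0.00.

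**Figure D2:**
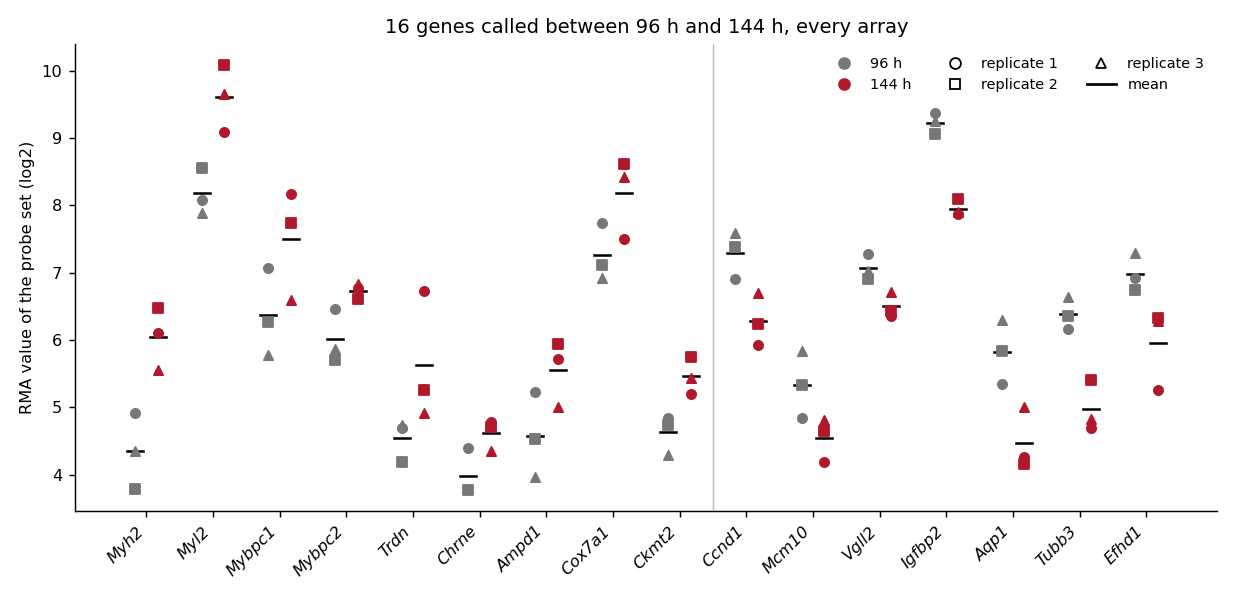
RMA values (log2) on each array of 96 h (grey) and 144 h (red) for 9 genes called higher (left of the line) and 7 called lower (right); symbols mark the replicates and bars the mean of 3. The groups do not overlap for Myh2, Myl2 or Igfbp2 and overlap for Mybpc1, Chrne, Ampd1 and Cox7a1; heights are not comparable between genes.

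Of the 24 measured genes of excitation-contraction coupling, 1 rose and 0 fell, beside 0.209% of all genes risen, and the list median was 0.10. Leaving out replicate 3 at 96 h gave a median of -0.01, with 1 member called higher and 1 lower, where 31 and 20 of 18193 genes were. Leaving out replicate 1 gave 0.32 at 96 h and, with 0 called, 0.03 at 144 h. The gene that rose was Trdn, triadin, which anchors calsequestrin at the calcium release channel. Its values were 4.70, 4.18 and 4.73 at 96 h and 6.73, 5.26 and 4.91 at 144 h. The groups did not overlap, but replicate 1 at 144 h lay far above the other 2. The difference was 1.10 ± 0.21 (limma adjusted p = 0.0070), and 0.55 without that array (adjusted p = 0.055), with a call in 4 of 6 fits. The 6 probe sets of Trdn gave differences from -0.06 to 1.80.

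Of 16 measured genes of the acetylcholine receptor and synapse, 1 rose and 0 fell, beside the same 0.209%, and the median was 0.18. With 1 array left out in turn, the median ran from 0.07 to 0.20. Chrne encodes the epsilon subunit, which replaces the gamma subunit in the adult receptor. Its values were 4.39, 3.77 and 3.78 at 96 h and 4.78, 4.70 and 4.35 at 144 h, near the array medians, and replicate 3 at 144 h lay just below replicate 1 at 96 h. The difference was 0.63 ± 0.14 (limma adjusted p = 0.022), and without replicate 1 at 144 h it was 0.54 with an adjusted p of 0.182. It was called in 2 of 6 fits. Chrna1, the alpha subunit, had no overlap and a difference of 0.20 ± 0.09, which was not called (limma adjusted p = 0.563).

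In muscle energy metabolism, 3 of 28 measured genes rose and 0 fell, where 0.209% of all genes rose, and the list median was 0.14 against -0.02 for all genes. The list median was 0.08 without replicate 3 at 96 h, with 1 member called, where 31 of 18193 genes rose. It was 0.25 without replicate 1 at 96 h, with 4 called, where 71 of 18193 genes rose. Ckmt2, the sarcomeric mitochondrial creatine kinase, had values of 4.84, 4.74 and 4.30 at 96 h and 5.20, 5.74 and 5.44 at 144 h. All arrays at 144 h were the higher ones. Its difference was 0.84 ± 0.13 (limma adjusted p = 5.8e-04), and 0.97 without replicate 1 at 144 h, with a call in 6 of 6 fits.

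Cox7a1, the heart and muscle isoform of a cytochrome c oxidase subunit, stood at 7.74, 7.12 and 6.92 at 96 h and at 7.50, 8.62 and 8.42 at 144 h. Replicate 1 was the lowest of its group at 144 h and the highest at 96 h, and the groups overlapped. The difference was 0.92 ± 0.20 (limma adjusted p = 0.024), and 1.26 without replicate 1 at 144 h (adjusted p = 1.8e-04). It was called in 2 of 6 fits, and lost without replicates 2 or 3 of either time, with an adjusted p of up to 0.207. Ampd1, the muscle AMP deaminase, had values of 5.22, 4.52 and 3.96 and then of 5.72, 5.94 and 5.00, with overlap between the groups. It rose by 0.98 ± 0.20 (limma adjusted p = 0.013), called in 2 of 6 fits and not without replicate 1 at 144 h (0.90, adjusted p = 0.101). Ckm, the cytosolic muscle creatine kinase, differed by -0.05. Among 28 general subunits of oxidative phosphorylation 0 were called by limma, 2 were higher at an unadjusted p under 0.05, and the median was 0.01.

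**Figure D3:**
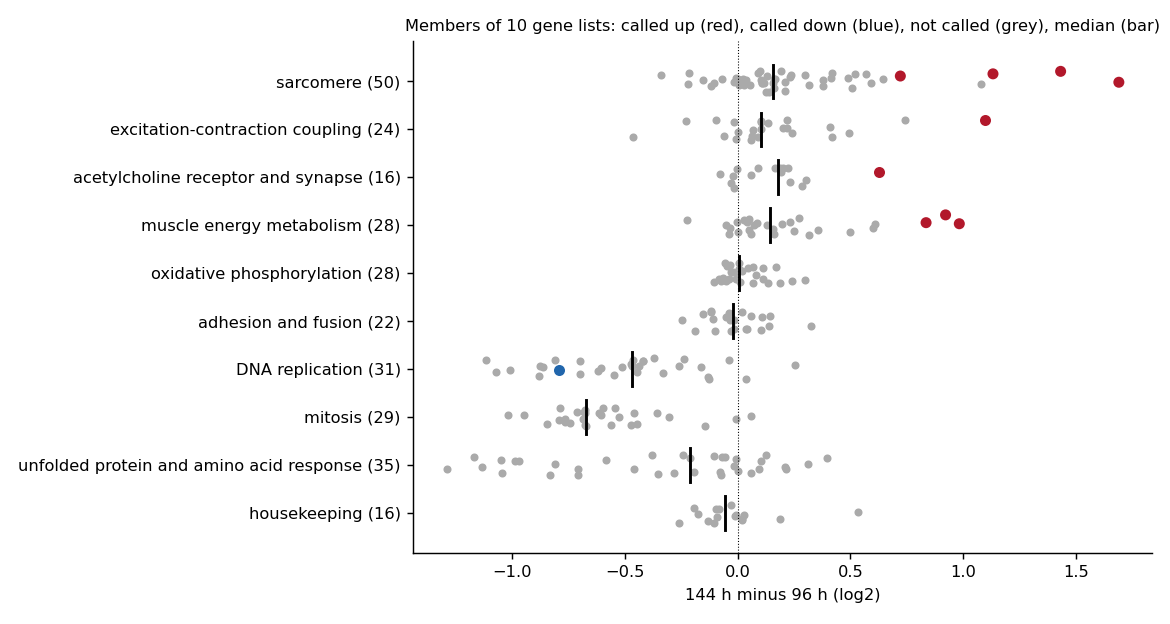
Difference between 144 h and 96 h (log2, x axis) of each measured member of 10 gene lists, with the number measured in brackets; red and blue points were called higher and lower, grey points were not called, and bars are medians. The called muscle genes lie at the upper end of lists whose medians are between 0.10 and 0.18, and mitosis has a median of -0.68 with no called member. With 1 array left out in turn, the medians of these muscle lists ran from -0.01 to 0.32.

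Among 18 measured myogenic transcription factors 0 rose and 1 fell, beside 0.104% of all genes fallen, and the list median was 0.09. The gene that fell was Vgll2, a TEAD cofactor of skeletal muscle, with values of 7.28, 6.91 and 7.02 at 96 h and 6.36, 6.43 and 6.72 at 144 h. The groups did not overlap, and the difference was -0.57 ± 0.13 (limma adjusted p = 0.024). Without replicate 1 at 144 h it was -0.50 and not called (adjusted p = 0.185), and 2 of 6 fits called it.

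Myod1 differed by 0.13, Myog by 0.03 and Myf5 by 0.44, with overlapping arrays and limma adjusted p values of 0.951, 0.996 and 0.776. Myf6, also known as Mrf4, was 7.14 on replicate 1 at 96 h and 4.61 and 4.45 on the others, and 6.96, 6.18 and 5.41 at 144 h. Its difference of 0.78 ± 0.34 did not pass (limma adjusted p = 0.554). Mef2c was 11.66 on replicate 1 at 144 h and between 9.24 and 10.02 on the other 5 arrays, and its difference of 0.82 did not pass either. The fusion genes Mymk and Mymx differed by 0.04 and -0.12.

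The DNA replication and mitosis lists had medians below that of all genes, -0.02. In DNA replication, 1 of 31 measured genes fell (0.104% of all genes did) and 29 lay below 0, with a median of -0.47. At an unadjusted p under 0.05, 19 were lower, beside 4.53% of all genes. In mitosis, limma called 0 of 29, 17 were lower at an unadjusted p under 0.05, 28 lay below 0 and the median was -0.68. No mitosis gene separated the groups fully, where 7.19% of all genes tested did.

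The list means differed widely between arrays of a group. The mean of the mitosis genes was 6.16, 6.39 and 7.53 at 96 h and 5.59, 6.47 and 6.26 at 144 h. Replicate 3 at 96 h was the high array and replicate 1 at 144 h the low one, and the 2 other arrays of each group lay close together. Without replicate 3 at 96 h the mitosis median was -0.18, and without replicate 1 at 144 h it was -0.30, each with 1 gene lower at an unadjusted p under 0.05. Of all 18193 genes, 815 and 485 were lower at that threshold in these fits. With replicate 1 at 96 h left out, the mitosis median was -0.89 and 7 mitosis and 15 replication genes were called lower, where 85 of 18193 genes were.

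The replication genes had means of 6.53, 7.21 and 7.27 at 96 h and 5.98, 6.81 and 6.72 at 144 h, so replicate 1 was the lowest in both groups. Their median without replicate 1 at 144 h was -0.27, with 7 genes lower at an unadjusted p under 0.05 and 0 called by limma; without that array 2.67% of all genes were lower at that threshold and 3.24% higher. Between 48 h and 96 h, a step that shares the 96 h arrays, 27 of 31 replication and 25 of 29 mitosis genes had fallen, where 2.68% of all genes did, with medians of -1.02 and -1.48.

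**Figure D4:**
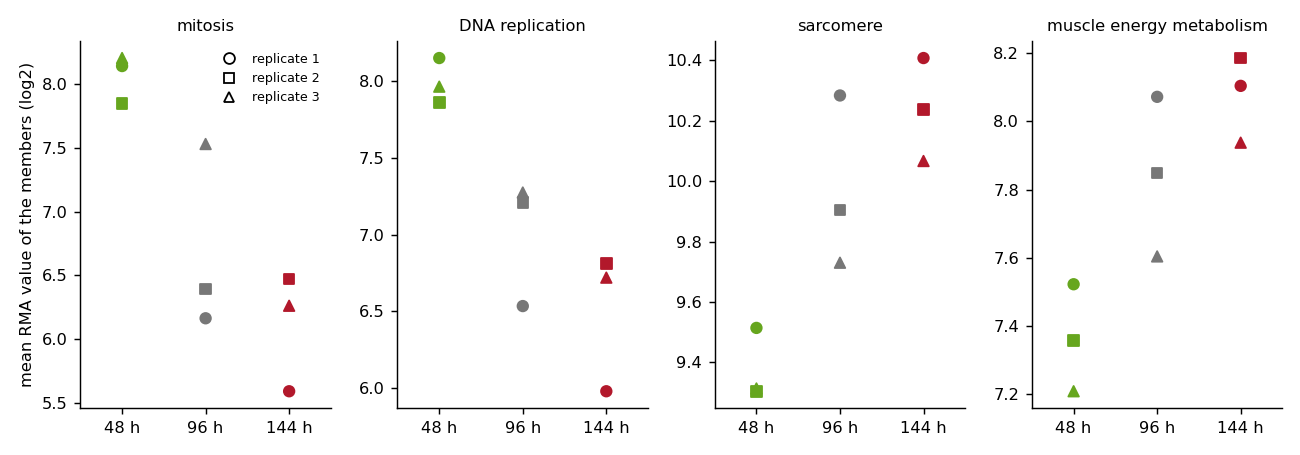
Mean RMA value (log2) of the measured members of 4 gene lists on each array at 48 h (green), 96 h (grey) and 144 h (red); symbols mark the replicates, and each panel has its own y axis that does not start at 0. The mitosis mean of replicate 3 at 96 h, 7.53, stands above the other 96 h arrays and that of replicate 1 at 144 h, 5.59, below the other 144 h arrays.

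The replication gene that fell was Mcm10, a factor in the activation of the replicative helicase. Its values were 4.84, 5.34 and 5.83 at 96 h and 4.19, 4.64 and 4.81 at 144 h, with replicate 3 at 144 h just under replicate 1 at 96 h. The difference was -0.79 ± 0.17 (limma adjusted p = 0.024), and without replicate 1 at 144 h it was -0.61 and not called (adjusted p = 0.285), and 3 of 6 fits called it. One of its other probe sets gave 0.02.

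Ccnd1 encodes cyclin D1, the G1 cyclin that myoblasts keep while they cycle. It stood at 6.91, 7.38 and 7.59 at 96 h and at 5.93, 6.23 and 6.70 at 144 h. The groups did not overlap, and the fall was 2.01-fold, with an SE of 0.19 on the log2 scale (limma adjusted p = 0.0048). Without replicate 1 at 144 h it was -0.83 with an adjusted p of 0.083, and 4 of 6 fits called it. Its mean at 0 h had been 9.63. Ccnd1 was the called gene of 20 in the cell cycle exit list, beside 0.104% of all genes fallen, and the list median was 0.06. Cdkn1a, the p21 inhibitor of cyclin-dependent kinases, differed by 0.18 (limma adjusted p = 0.940).

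Other called genes of the replication fork and chromatin were outside the list. Timeless, a fork protection protein, had values of 5.50, 5.79 and 5.67 at 96 h and 5.02, 5.02 and 4.96 at 144 h, with no overlap, and a difference of -0.65 ± 0.14 (limma adjusted p = 0.022). Wdhd1, a fork scaffold, fell by 0.76 and Vrk1, a nuclear kinase, by 0.72 on the log2 scale. Timeless was called in 1 of the 6 fits that leave out 1 array, Wdhd1 in 4 and Vrk1 in 3. Without replicate 1 at 144 h, Timeless was at -0.66 (limma adjusted p = 0.069) and Vrk1 at -0.61 (limma adjusted p = 0.083), neither called.

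Igfbp2, a secreted protein that binds insulin-like growth factors, was the called gene of its axis, 1 of 19 measured, beside 0.104% of all genes fallen. Its values were 9.38, 9.06 and 9.26 at 96 h and 7.87, 8.09 and 7.90 at 144 h. The groups did not overlap, with little spread in either. The difference was -1.28 ± 0.24 (limma adjusted p = 0.0046), the SD within the 6 arrays was 0.14, and 6 of 6 fits called it. Igf2 differed by -0.69 and was not called. Igf1 was 9.47 on replicate 1 at 144 h, 6.79 and 6.96 on the other 144 h arrays, and 5.66 to 6.22 at 96 h. Its difference of 1.73 ± 0.66 was not called (limma adjusted p = 0.455).

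Tubb3, the class III beta-tubulin best known from neurons, had the largest fall of the 19. Its values were 6.16, 6.36 and 6.63 at 96 h and 4.69, 5.40 and 4.82 at 144 h, without overlap. The difference was -1.41 ± 0.23 (limma adjusted p = 6.5e-04), with a call in 6 of 6 fits. Tubb3 was 1 of 19 measured endothelial, neural and Schwann markers, of which no other was called, beside 0.104% of all genes fallen.

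Aqp1, a water channel, had values of 5.34, 5.83 and 6.29 at 96 h and 4.26, 4.16 and 5.00 at 144 h. Every 144 h array was below every 96 h array, and the difference was -1.35 ± 0.21 (limma adjusted p = 2.8e-04), with a call in 6 of 6 fits. Its mean had fallen from 9.25 at 0 h. Steap1, a membrane protein, fell by 0.88 and Efhd1, a mitochondrial calcium binding protein, by 1.03 on the log2 scale. L1cam, a neural adhesion molecule, fell by 0.97 and Mthfd1l, a mitochondrial folate enzyme, by 0.94. Of the 6 fits that leave out 1 array, Steap1 was called in 6, L1cam in 5, and Efhd1 and Mthfd1l in 4 each. Without replicate 1 at 144 h, Efhd1 was at -0.68 (limma adjusted p = 0.182) and Mthfd1l at -0.60 (limma adjusted p = 0.211), neither called. Dync1i1, a dynein chain, fell by 0.84 and Cadm4, an adhesion molecule, by 0.81, with calls in 2 and 5 of 6 fits. Cadm4 was at -0.57 without replicate 1 at 144 h and not called (limma adjusted p = 0.093).

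Several risen genes belonged to no muscle list. Il12a, a subunit of interleukin 12 and 35, had values of 6.98, 6.70 and 6.94 at 96 h and 7.43, 8.66 and 8.27 at 144 h, with no overlap and a difference of 1.25 ± 0.23 (limma adjusted p = 0.0031), called in 5 of 6 fits. Cd28, a T cell costimulatory receptor, stood at 3.68, 3.70 and 3.73 and then at 4.83, 4.56 and 4.47. These groups did not overlap, but all 6 values lay near the array medians, and the leukocyte list had 0 of 18 members called by limma and 0 at an unadjusted p under 0.05. The Cd28 difference was 0.92 ± 0.09 (limma adjusted p = 3.6e-08), called in 6 of 6 fits.

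Serping1, the C1 inhibitor of complement, had values of 5.72, 6.13 and 6.06 at 96 h and 6.65, 7.18 and 7.27 at 144 h. It rose by 1.06 ± 0.25 (limma adjusted p = 0.040) with no overlap. It was the called gene of 16 measured complement and acute phase genes, beside 0.209% of all genes risen. Mt1, a metallothionein, went from 10.67, 10.83 and 10.49 to 11.18, 11.34 and 11.07, also with no overlap. Its difference was 0.53 ± 0.11 (limma adjusted p = 0.013). Serping1 was called in 1 of the 6 fits that leave out 1 array, that without replicate 1 at 144 h, and its adjusted p reached 0.167 in the others. Mt1 was called in 4 and lost without replicate 3 at 96 h or replicate 2 at 144 h.

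Of 22 measured ion channel and transport genes of muscle 1 rose, beside 0.209% of all genes risen, and the list median was -0.02. Fxyd1, phospholemman, a regulator of the sodium pump in muscle, had values of 7.04, 6.04 and 6.15 at 96 h and 7.79, 7.98 and 7.14 at 144 h. The groups did not overlap, and the difference was 1.23 ± 0.26 (limma adjusted p = 0.022), called in 2 of 6 fits and not without replicate 1 at 144 h (adjusted p = 0.120). Cacna2d2, a calcium channel subunit, rose by 1.19 ± 0.17 (limma adjusted p = 1.7e-04), although the lowest of its 3 probe sets gave -0.07. Ddit4l, an inhibitor of mTOR signalling, stood at 5.22, 4.97 and 5.04 and then at 5.87, 5.98 and 6.15, and rose by 0.93 ± 0.14 (limma adjusted p = 2.5e-04). Asprv1, a protease known from skin, rose by 1.17, and Adamtsl1, a matrix protein, by 1.00. Cacna2d2, Ddit4l, Asprv1 and Adamtsl1 were each called in 6 of 6 fits. So were Cxcr6, which rose by 1.03 with overlapping arrays, Hs3st1 (0.92), As3mt (0.83), Cyp2d22 (0.78) and Lrrc2 (0.77). Pfn2 rose by 0.89 and Ndrg2 by 0.84, each called in 2 of 6 fits. Pth1r, the parathyroid hormone receptor, was the called gene of 17 bone and cartilage markers, beside 0.209% of all genes risen. Its difference was 0.53, with overlapping arrays and a call in 1 of 6 fits.

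Of the 57 called genes, 24 had means below 6 in both groups, where the deposited values come without detection calls. Of the 25 called genes with several probe sets, 7 had probe sets that disagreed in sign: Abca1, Cacna2d2, Ermp1, Lrrc2, Mcm10, Mlip and Trdn.

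The unfolded protein and amino acid response, whose genes are driven by stress of the endoplasmic reticulum or by lack of amino acids, had 0 of 35 members called by limma. At an unadjusted p under 0.05, 11 were lower, where 4.53% of all genes were, and the median was -0.21. The list mean was 9.17 on replicate 1 at 96 h and 8.36 on each of the other 96 h arrays, against 8.18 to 8.40 at 144 h. Trib3, a stress-induced pseudokinase, was 8.68, 5.92 and 5.98 at 96 h and 5.15, 5.97 and 5.96 at 144 h. Without replicate 1 at 96 h, 4 members were lower at an unadjusted p under 0.05, where 1385 of 18193 genes were, and the median was -0.13. Without replicate 2 at 96 h, 14 were lower and 3 of them called (median -0.39), where 620 of 18193 genes were lower and 22 called lower. Without replicate 3 at 96 h, 16 were lower and 4 called (median -0.30), where 815 of 18193 genes were lower and 20 called lower. Without replicate 1 at 144 h, 9 were lower and 0 called (median -0.19), where 485 of 18193 genes were lower and 8 called lower.

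Of the 43 lists, 13 had a called member, where 0.313% of all genes were called. Besides mitosis and the unfolded protein response, 28 lists with 725 measured entries had none, with medians between -0.15 and 0.21. In these, limma placed 43 entries higher (5.93%) and 30 lower (4.14%) at an unadjusted p under 0.05, beside 3.5% and 4.53% of all genes. The highest share of 1 list was 26.7%, with 4 of 15 fatty acid synthesis genes lower, and 1 to 5 when 1 array was left out. Of 34 cytosolic ribosomal proteins 32 lay below 0, and of 37 autophagy and lysosome genes 30 lay above 0. Of all 18193 genes, 9960 lay below 0 and 8233 above. Among FoxO targets, Fbxo32 differed by 0.41 and Trim63, not called either, by 0.32; both are ubiquitin ligases of muscle atrophy. Id3, a repressor of myogenic factors, differed by 0.75, Id1 by 0.06 and Col1a1, a collagen chain, by 0.04, none of them called.

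The step was set beside earlier ones. Between 48 h and 96 h, which spans the same 48 h and shares the 96 h arrays, 844 genes were called (4.64%), 357 higher (1.96%) and 487 lower (2.68%). The difference between both steps, in which the 96 h arrays enter with both, was called for 12 genes (0.066%). In all 12 the later step was the lower one.

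Myh4 had values that averaged 5.94 at 48 h, 8.17 at 96 h and 7.83 at 144 h. It rose by 2.23 in the first step and differed by -0.34 in the second, a difference between steps of -2.57 ± 0.41 (limma adjusted p = 0.0013). Myot rose by 3.55 and then differed by 1.08, with a difference between steps of -2.47 ± 0.45 (limma adjusted p = 0.012). Myh2 rose by 0.82 in the first step and by 1.69 in the second, and the test of that difference did not pass (0.87 ± 0.28, limma adjusted p = 0.444).

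The change from 0 h to 48 h shares no array with the step; it was called for 26.7% of all genes, 12.4% higher and 14.3% lower. Of the 38 risen genes, 29 were higher at 48 h than at 0 h, 13 of them called, and 3 were called lower. Of the 19 fallen genes, 15 were lower at 48 h, 11 of them called, and 3 were called higher. Of all genes, 60.1% were higher at 48 h and 39.9% lower. The share of fallen genes, 78.9%, ran from 30.0% without replicate 3 at 96 h to 76.0% when 1 array was left out, and was 45.5% without replicate 2 at 96 h. The genes whose sign differed included Serping1, Mt1 and Ndrg2 among the risen and Tubb3, Apod, Neu2 and Vgll2 among the fallen. At 144 h, 36 of the risen genes had their highest mean of all untreated times and 17 of the fallen genes their lowest. The genes were called on these same 144 h arrays, which favours such extremes, and the share over all genes was not computed.

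**Figure D5:**
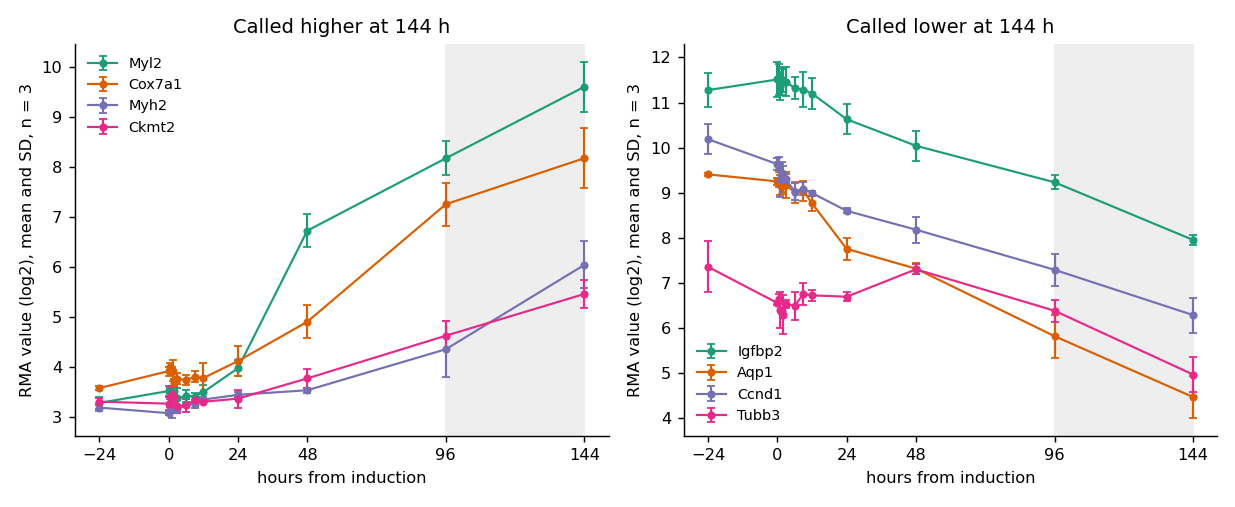
Mean RMA value (log2) with SD of 3 arrays over the untreated times, for 4 genes called higher (left) and 4 called lower (right) at 144 h; the x axis gives hours from induction and the shaded band is the step from 96 h to 144 h. Myh2 rises from 4.35 at 96 h to 6.04 at 144 h, and Igfbp2 falls from 9.23 to 7.95.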

How the data were processed

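Per the labels' protocols, RNA was extracted with Trizol and 5 µg went into the biotin labelling. The authors deposited log2 intensities from RMA, per the submitters' processing notes; the version of RMA, and whether all arrays were processed together, are not given in the sources used here. The values were used as deposited, without detection calls. Array number limits the precision.

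Of 45101 probe sets, 34945 had exactly 1 gene symbol in the platform annotation and covered 18193 genes; 9010 genes with several probe sets were represented by that with the highest mean over 48 arrays. limma 3.58.1 in R 4.3.3 was fitted with 1 coefficient for each of 16 groups (32 residual degrees of freedom). Tests were two-sided, with Benjamini-Hochberg adjustment over all genes. The fit was tested on simulated data with 1 spread per gene, the same in every group. That run could not test the effect of the wider spread at 96 h and 144 h.

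Named genes were the up to 15 called genes of largest change in each direction whose groups did not overlap, up to 4 called members of each of 43 lists or otherwise 2 with the largest difference, a constant set of muscle genes, and up to 5 for the difference between steps. Clone names were counted and not named. Cxcr6, As3mt, Cyp2d22 and Lrrc2 were added because all 6 fits that leave out 1 array called them. Wdhd1 and Vrk1 were also grouped by known role, and Igf1, Mef2c, Myot and Myh1 described by array, after their values were seen. The step, lists and members were chosen with earlier results of these data known. Promoter windows are RefSeq sequences. Alternatives changed the arrays in the fit, the block, the scaling, the probe sets and the filter. Same-numbered arrays of 96 h and 144 h were not treated as pairs.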

Additional observations from a re-analysis of the deposited data

Results flagged for a closer look

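The difference between the steps from 48 h to 96 h and from 96 h to 144 h passed the test in limma for 12 genes, and the 5 of largest size are given here. The later step minus the earlier one was -2.57 for Myh4, -2.47 for Myot, -1.79 for Rad51b, -1.59 for Tesc and -1.51 for Fgf13, all on the log2 scale. The 96 h arrays enter both steps with opposite sign. Rad51b, a recombination protein, averaged 4.13 at 48 h, 5.24 at 96 h and 4.56 at 144 h. Tesc, a calcium binding protein, averaged 4.26, 5.53 and 5.21, and Fgf13, a sodium channel regulator, 4.18, 6.12 and 6.54. With the spread of the 9 late arrays, limma called 0 genes for this difference.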

How the results depend on the processing

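Alternatives that changed only the spread, the block or the set of genes leave each difference as it was, so its sign could not change. The 57 called genes, where measured, kept their sign but for 1 when values were rescaled, probe sets chosen otherwise or an array left out. They were called on these same arrays, which favours a kept sign. Without probe sets named _s_at or _x_at, which may cross-hybridise, Lrrc2 was at -0.0825 (limma adjusted p = 0.897). The cause was not tested. The 6 arrays alone gave 0 called genes, 0 higher and 0 lower, and so did both fits of the 9 late arrays, with and without replicate 1 at 144 h, which were chosen after seeing the data; these also gave 0 for the difference between steps. Genes with a mean of at least 6 gave 27, with 17 higher and 10 lower, of 7617 tested. Quantile normalization again gave 65 genes, 30 lower, and 53.8% higher among calls, against 66.7% as deposited. The 42 arrays without cycloheximide gave 52 genes, 34 higher and 18 lower. The remaining settings without a block or a left-out array gave 51 to 60 genes.

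Leaving out 1 array in turn gave 40 to 156 called genes, 18 to 71 higher and 8 to 85 lower, and the 17 genes called in all 6 of these fits were 13 risen and 4 fallen. The count was 156 without replicate 1 at 96 h. The difference between steps gave 9 to 105 genes, with 105 without replicate 3 at 96 h. The share of genes called lower that were also lower at 48 h than at 0 h was 78.9% as reported. Over these fits, each with its own called genes, it ran from 30.0% to 76.0%. That of genes called higher ran from 61.3% to 82.5%.

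The replicate number as a block over 48 arrays gave 154 called genes, 78 higher and 76 lower, and 25 for the difference between steps. On the 6 arrays alone the block gave 0, 0 higher and 0 lower, with 557 higher and 374 lower at an unadjusted p under 0.05. Same-numbered arrays of 96 h and 144 h had correlations of their deviations of 0.31, 0.35 and 0.03, and the labels do not say that a number marks a passage, so the pairing is not part of the design. The values come with no detection calls, so signal over background could not be given for the 24 called genes with means below 6 in both groups.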
